A study of Mus musculus with 4 samples.

Results

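The transcripts of 5 signal transducers and activators of transcription, Stat2, Stat3, Stat5a, Stat5b and Stat6, and of 4 suppressors of cytokine signalling, Socs1, Socs2, Socs3 and Cish, were followed in mouse macrophages. They were chosen by gene symbol, as STAT factors and feedback genes of the SOCS family, and all 9 were found among the 21878 genes listed. RNA sequencing covered 4 libraries of bone marrow-derived macrophages (BMDM), 2 labelled WT (genotype wild type) and 2 labelled anti-Act1, which the study describes as mice with Act1 knocked down in macrophages only. All mice were of the C57BL/6 strain and 8 weeks of age according to the labels. All macrophages, WT included, had been cocultured for 48 h by the labels (the study's text gives a shorter time) with MC38, a colon cancer cell line from the same mouse strain. They shared medium with the tumor cells across a porous insert, so no library without coculture was compared here. The study calls the 2 libraries of a group biological replicates, but nothing in the labels ties them to separate mice, so p-values measure the spread between these libraries only, which may be technical.

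Cytokine receptors that lack a kinase of their own carry JAK kinases, which phosphorylate STAT proteins, and the STAT dimers then bind DNA and switch on target genes. Among these targets are the SOCS genes, whose proteins block the receptor or the kinase and so end the signal: Cish and Socs2 are classical targets of STAT5, Socs3 of STAT3, and Socs1 of interferon signals. In macrophages STAT2 works with IRF9 downstream of type I interferon, STAT3 downstream of IL-10 and the IL-6 family, STAT5 downstream of GM-CSF, and STAT6 downstream of IL-4 and IL-13.

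Each library held 55435063 to 75062945 counts. Levels of 1 gene are given below as CPM, counts scaled to 1e6 of the library total after TMM normalization by edgeR, and an undetected gene could have been present at up to 3 counts, or 0.0395 to 0.0549 CPM by library, which covers counting error only. Traf3ip2, the gene for Act1, had 6.98 and 7.54 CPM in WT replicates 1 and 2, and 9.63 and 7.84 CPM in anti-Act1 replicates 1 and 2, the order kept below for every gene. It was therefore not lower where a knockdown was labelled (log2 fold change 0.27, SE 0.12, adjusted p = 0.117 by edgeR's quasi-likelihood test), and without anti-Act1 replicate 2 it was called higher at 0.41 (adjusted p = 0.0343). The study reports reduced Act1 in BMDM of anti-Act1 mice from a separate measurement. Why the RNA counts here do not show this was not tested. Because the targeted gene was not lower where the label says so, every direction below is between libraries labelled anti-Act1 and WT. The summed macrophage markers (9 genes, Csf1r and Adgre1 among them) ranged from 25147 to 26111 CPM in WT and from 26075 to 26894 CPM in anti-Act1, and 2 of the 9 were called higher and 2 lower. Of 10 epithelial markers for tumor cells, 5 were at 0 in every library and none reached 1 CPM. The 4 Y-linked genes summed to 228 and 246 CPM in WT and to 0.0162 and 0 CPM in anti-Act1, so sex and genotype cannot be told apart in any comparison here.

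Promoter windows were read from RefSeq (GRCm38.p6) for 8 of the 9 genes and searched for the spacing that STAT dimers prefer, TTCNNNGAA, for the wider spacing known for STAT6, TTCNNNNGAA, and for the interferon-response spacing GAAANNGAAA, on both strands. Of 32851 promoter windows of the same length, from 250 bases before to 50 bases after the start, 8.3% held the first pattern, 6.95% the second and 3.44% the third. The windows below are shown because they carry the matches of the feedback genes, with matches in capitals and all sequences written 5′ to 3′ on the strand of the gene. Cish held a pair of TTCNNNGAA matches within the first 20 bases after its RefSeq start (chr9:107296649-107296678, plus strand), which GENCODE M21 places in the 5′ UTR of transcript Cish-201 and 51 and 40 bases before the start of transcript Cish-204.
Cish: ccgcccagttTTCCTGGAAagTTCTTGGAA
Socs3 held 1 such match, 154 to 146 bases before its RefSeq start (chr11:117969367-117969566, minus strand), in a window that also overlaps an exon of a non-coding Socs3 transcript. GENCODE M21 starts the coding transcript Socs3-201 further on, 334 bases after the first base of this match.
Socs3: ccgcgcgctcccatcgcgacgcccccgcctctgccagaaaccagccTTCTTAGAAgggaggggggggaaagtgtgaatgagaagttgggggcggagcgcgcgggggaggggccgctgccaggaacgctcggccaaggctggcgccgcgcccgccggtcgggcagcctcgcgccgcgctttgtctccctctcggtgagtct
Socs1 held GAAANNGAAA at 83 and at 77 bases before its start (chr16:10785537-10785686, minus strand), and these 2 matches overlap, so that the capitals run together.
Socs1: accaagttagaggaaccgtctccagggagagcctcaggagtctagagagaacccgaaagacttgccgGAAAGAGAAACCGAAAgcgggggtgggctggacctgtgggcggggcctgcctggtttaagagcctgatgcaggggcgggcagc
Among the STAT genes Stat2 held TTCNNNNGAA 210 bases before its start and GAAANNGAAA, on the other strand, 222 bases before it. In Stat3, Stat5a, Stat5b and Stat6 these letters were not in the windows searched. A match is a description of the letters and not a site shown to be used.

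The STAT transcripts were abundant and the SOCS transcripts were scarce. On the scale of deposited FPKM (reads scaled to gene length and library size), which allows levels of different genes to be compared, the mean level over the 4 libraries was highest for Stat6 at 81.6 FPKM, followed by Stat2 at 61.2, Stat3 at 38.3, Stat5b at 16.9 and Stat5a at 5.51 FPKM. Socs3 followed at 2.23 FPKM, Socs1 at 1.99, Cish at 1.76 and Socs2 at 0.583 FPKM. Neighbours in this order did not overlap in any library, except Socs3 with Socs1 and Socs1 with Cish. The 5 STAT transcripts together came to 201 and 207 FPKM in WT and to 203 FPKM in both anti-Act1 libraries, and these groups overlapped. The 4 SOCS transcripts together came to 5.55 and 5.59 FPKM in WT and to 7.68 and 7.41 FPKM in anti-Act1, which did not overlap.

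**Figure D1:**
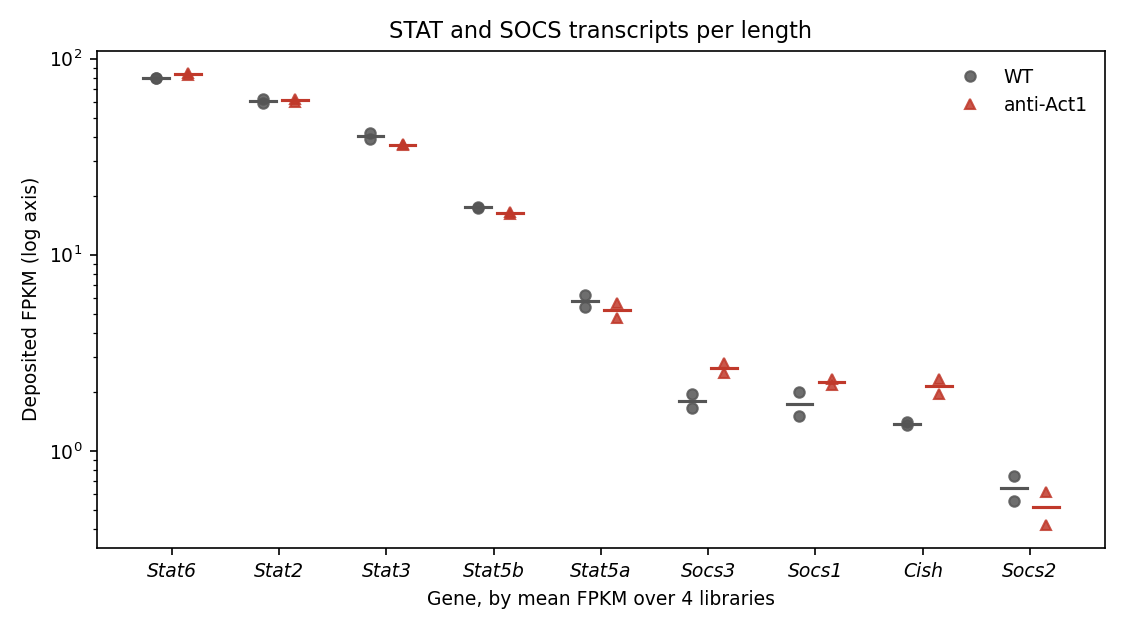
Deposited FPKM of the 9 transcripts (log axis) in each library, ordered by the mean over the 4 libraries, with WT as circles, anti-Act1 as triangles and a bar at each group mean. Every STAT transcript lies above every SOCS transcript, and the anti-Act1 libraries lie above the WT libraries for Socs3, Socs1 and Cish.

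Cish and Socs3 were the members that changed between the groups. Both were higher in the anti-Act1 libraries, by about the same factor, and no member was called lower. The count of 2 called among 9 stood beside a background of 20.7% of the 12494 genes tested that were called in either direction, 10.9% of them higher, so the share of members called was near the background. The groups did not overlap in CPM for 7 of the 9 members, 5 of them higher and 2 lower, where 57.1% of all genes tested did not overlap, 28.4% higher and 28.7% lower.

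Cish encodes the inhibitor CIS, which binds the phosphorylated receptors that activate STAT5. Its counts were 257 and 312 in WT and 358 and 384 in anti-Act1, which corresponded to 3.98 and 4.11 CPM against 5.80 and 7.03 CPM. Both anti-Act1 libraries lay above both WT libraries, and the pair of anti-Act1 libraries lay further apart than the pair of WT libraries. The means were 4.04 ± 0.0941 CPM and 6.41 ± 0.873 CPM (SD, n = 2 each), a ratio of 1.59. The log2 fold change was 0.66 (SE 0.14, 95% interval 0.37 to 0.95) and passed edgeR's quasi-likelihood test with an adjusted p of 0.000448. In size this difference was at or above that of 92.7% of all genes tested. GENCODE M21 annotates Gm17041 and Gm17040 on the opposite strand of Cish, over 7.46% and 4.07% of its exon bases, and the library kit named in the labels does not keep the strand, so reads of these genes cannot be told from those of Cish.

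Socs3 encodes the inhibitor that binds gp130, the shared receptor chain of the IL-6 family, and the JAK kinases. Its counts were 355 and 351 in WT and 489 and 393 in anti-Act1, that is 5.49 and 4.62 CPM against 7.92 and 7.20 CPM. The groups did not overlap, with replicate 1 the higher library of each group. The means were 5.06 ± 0.615 CPM and 7.56 ± 0.51 CPM (SD, n = 2 each), a ratio of 1.49, and the log2 fold change of 0.58 (SE 0.13, 95% interval 0.31 to 0.85) had an adjusted p of 0.000827 by edgeR's quasi-likelihood test. For both genes the call was lost in 1 of the 13 alternatives, the unfiltered limma test on log2(FPKM + 1), where Socs3 was at 0.38 (adjusted p = 0.0760) and Cish at 0.40 (adjusted p = 0.0609). With the filter the same values were called, and with a pseudocount of 0.1 in place of 1 they were 0.53 and 0.60 and were called too.

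The other 2 SOCS members were not called. Socs1, the inhibitor of JAK kinases best known downstream of interferon, was at 1.90 and 2.52 CPM in WT and at 2.98 and 2.80 CPM in anti-Act1. The anti-Act1 libraries were the higher ones without overlap, but the log2 fold change of 0.38 (95% interval -0.02 to 0.78) had an adjusted p of 0.186 by edgeR. Socs2, the inhibitor of growth hormone signalling, was at 2.82 and 2.08 CPM in WT and at 2.35 and 1.61 CPM in anti-Act1. These groups overlapped, and the log2 fold change of -0.29 (95% interval -0.74 to 0.15) had an adjusted p of 0.392. With 88 to 191 counts per library, Socs1 and Socs2 had the widest intervals of the 9 members.

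Of the 5 STAT transcripts, with 1126 to 22839 counts per library, 0 were called by edgeR, by DESeq2 or by limma on filtered FPKM, and 1, Stat3, was under 0.05 in edgeR before adjustment. Stat2, the partner of IRF9, was at 227.1 and 235.2 CPM in WT and at 240.7 and 235.3 CPM in anti-Act1. The groups touched without overlapping, and the log2 fold change was 0.04 (95% interval -0.06 to 0.14, adjusted p = 0.632). Stat6, the factor of IL-4 and IL-13 signalling, was at 302.4 and 300.9 CPM in WT and at 313.7 and 325.1 CPM in anti-Act1. Both anti-Act1 libraries were higher, and the log2 fold change of 0.08 (95% interval -0.02 to 0.18) had an adjusted p of 0.275 by edgeR.

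Stat3, the factor through which IL-6 and IL-10 signal, was at 155.4 and 165.4 CPM in WT and at 146.8 and 149.2 CPM in anti-Act1. Both anti-Act1 libraries lay below both WT libraries. The log2 fold change was -0.12 (SE 0.05, 95% interval -0.22 to -0.01), with an adjusted p of 0.116 by edgeR's quasi-likelihood test (0.0321 before adjustment over all genes). Without WT replicate 1, the lower of the WT libraries, it was -0.16 with an adjusted p of 0.0375, and the count of members called was then 3. Without WT replicate 2 it was -0.0704 (adjusted p = 0.510).

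Stat5a and Stat5b encode near-identical factors of GM-CSF, growth hormone and prolactin signalling. Stat5a was at 20.5 and 23.5 CPM in WT and at 18.2 and 21.9 CPM in anti-Act1, with overlap, and its log2 fold change was -0.14 (95% interval -0.31 to 0.03, adjusted p = 0.282). Stat5b was at 96.8 and 95.6 CPM in WT and at 92.4 and 90.9 CPM in anti-Act1, without overlap, and its log2 fold change was -0.07 (95% interval -0.18 to 0.04, adjusted p = 0.414). Transcripts of the pair share an identical run of up to 324 bases, and 8.21% of the 50-base words of Stat5a and 11% of those of Stat5b occur in the other, so reads from these stretches could have been split between them or left out. Stat5a made up 23.6% and 26.4% of their joint FPKM in WT and 22.3% and 26.0% in anti-Act1, with overlap. Stat5b, Stat5a and Stat3 are neighbours on chromosome 11, and the exons of Stat3 and Stat5a overlap by 72 bases on opposite strands.

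**Figure D2:**
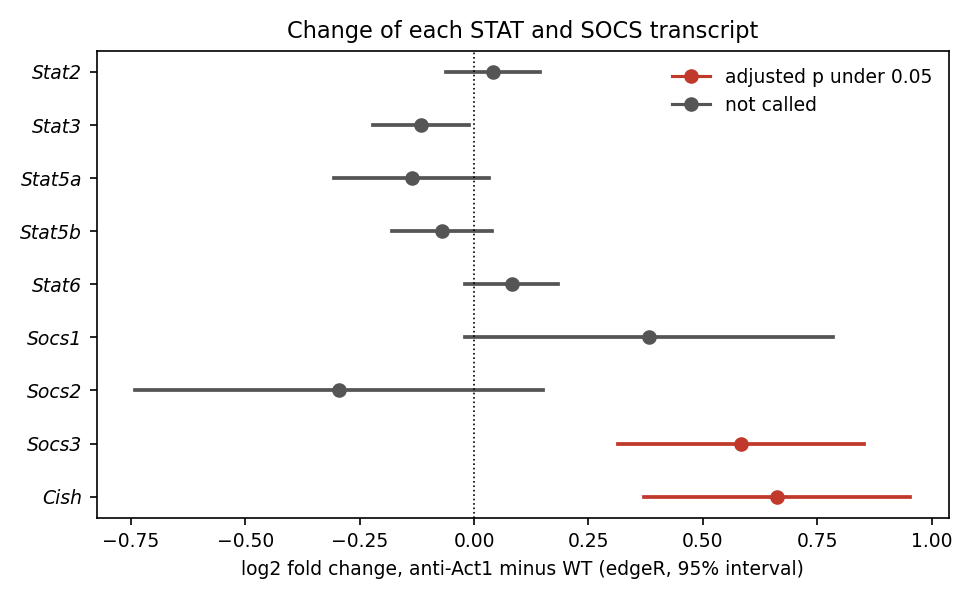
Log2 fold change (anti-Act1 minus WT, edgeR) of each member as a point with its 95% interval, with members called at an adjusted p under 0.05 in red. The intervals of Socs3 and Cish lie above 0, and Stat3 has an interval just below 0 that did not pass after adjustment over all genes.

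Ratios within a library set the members against each other without use of the library total. The FPKM ratio of Socs3 to Stat3 was 0.0503 and 0.0398 in WT and 0.0767 and 0.0686 in anti-Act1, so that the groups did not overlap. The FPKM ratio of Cish to Socs2, a pair of genes with the same upstream factor, was 1.81 and 2.53 in WT and 3.17 and 5.60 in anti-Act1. The FPKM ratio of Stat3 to Stat6 was 0.486 and 0.519 in WT and 0.442 and 0.434 in anti-Act1. By contrast the ratio of Cish to Socs3 overlapped, at 0.691 and 0.848 in WT and 0.699 and 0.932 in anti-Act1. The ratio of Socs3 to Socs1 overlapped too, at 1.31 and 0.831 in WT and 1.20 and 1.16 in anti-Act1. An exact permutation test of a single ratio in 2 against 2 libraries cannot go below p = 0.333, so these ratios are given as values.

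The remaining genes of the pathway were described by counts of calls and by medians, beside 10.9% called higher and 9.76% called lower among all genes tested and an overall median log2 fold change of -0.00. Of 26 ligands of JAK-STAT receptors, 12 were expressed enough to be tested, 7 of these rose and 0 fell. Of the 7, 3 (Il6, Il23a and Ifnb1) reached the filter on low counts in the anti-Act1 libraries only, so the filter favoured a higher level there. Among the other 9 tested ligands 4 rose, with a median log2 fold change of 0.18. Lif, a ligand of the IL-6 family, was at 0.666 and 0.553 CPM in WT and at 2.85 and 2.67 CPM in anti-Act1. Its groups stood far apart, with a log2 fold change of 2.18 (SE 0.26, adjusted p = 7.26e-09 by edgeR). Il15, a cytokine presented to lymphocytes that signals through STAT5, was at 73.0 and 70.0 CPM in WT and at 84.0 and 85.8 CPM in anti-Act1 (log2 fold change 0.25, adjusted p = 0.000667). Il23a, a subunit of IL-23, had 0 and 2 counts in WT and 12 and 17 in anti-Act1. As it reached the filter in the anti-Act1 libraries only, it is given as counts without a ratio. The number of ligands called higher was 2 by DESeq2 and 1 by limma on filtered FPKM, and 0 were lower by either or by edgeR before adjustment. Lif, Il6, Il23a and Ifnb1 lay below the FPKM minimum of that limma test, so it could not call them. By edgeR fewer ligands were called with any 1 library left out, and Il23a was not called without WT replicate 1. Those fits did not set aside the 3 ligands that reached the filter in the anti-Act1 libraries only. Over the libraries left out, the log2 fold change was 2.05 to 2.31 for Lif and 0.22 to 0.28 for Il15.

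Receptor genes moved in both directions. Of 35, 31 were tested, 6 rose and 5 fell. Il9r and Il23r, 2 of the 6, reached the filter in the anti-Act1 libraries only, and among the other 29 tested receptors 4 rose and 5 fell, with a median log2 fold change of 0.04. Il15ra, the private chain of the IL-15 receptor, was at 7.41 and 7.79 CPM in WT and at 11.04 and 11.79 CPM in anti-Act1 (log2 fold change 0.59, adjusted p = 4.81e-05), and the common gamma chain Il2rg rose by 0.26 on the log2 scale (adjusted p = 0.000341). Ifnar2, a chain of the type I interferon receptor, rose by 0.22 (adjusted p = 0.00108). The receptor of G-CSF, Csf3r, was at 139 and 136 CPM in WT and at 98.8 and 98.2 CPM in anti-Act1, a log2 fold change of -0.48 (adjusted p = 6.31e-10). Neutrophils carry this receptor too, and their 9 markers summed to 7.37 and 7.29 CPM in WT and to 7.64 and 6.70 CPM in anti-Act1. The 1 called higher, S100a8, was at 3.61 and 3.74 CPM in WT and at 6.09 and 5.55 CPM in anti-Act1. The 3 called lower were S100a9, Ltf and Ngp, with log2 fold changes of -1.42, -1.58 and -2.21. The part of neutrophils in the result was not tested. Il2rb, the signalling chain shared by the IL-2 and IL-15 receptors, was at 2.29 and 2.36 CPM in WT and at 0.599 and 1.03 CPM in anti-Act1 (log2 fold change -1.53, adjusted p = 1.74e-05). T cells express Il2rb too, and the 8 of their 10 markers found in the table summed to 26.3 and 26.4 CPM in WT and to 28.9 and 32.1 CPM in anti-Act1. Most of this was Cd4, at 25.3 and 25.02 CPM in WT and at 27.3 and 30.9 CPM in anti-Act1, which was the 1 marker called (0.21, adjusted p = 0.0358). Lck reached 1.02 CPM, Cd2 0.646 CPM and Cd3d, Cd3e and Cd3g at most 0.0929 CPM, Cd8b1 was at 0 in every library, and the part of these cells in the result was not tested. The IL-6 receptor Il6ra had a log2 fold change of -0.20 (adjusted p = 0.012), but was not called without anti-Act1 replicate 1 (-0.17, adjusted p = 0.172) or replicate 2 (-0.21, adjusted p = 0.0703). The receptors called were 4 higher and 2 lower without anti-Act1 replicate 1 and 3 higher and 3 lower without replicate 2.

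Inside the cell, 0 of 4 JAK kinases were called by edgeR, by DESeq2 or by limma on filtered FPKM, with 1 under 0.05 in edgeR before adjustment. Jak1, the most abundant, was at 314 and 327 CPM in WT and 319 CPM in both anti-Act1 libraries. Without anti-Act1 replicate 2, 1 of the 4 was called higher. Among the 4 SOCS genes that are no members, Socs6 was the 1 called, at 69.0 and 72.5 CPM in WT and 60.6 and 62.2 CPM in anti-Act1 (log2 fold change -0.20, adjusted p = 0.00757). It was not called without WT replicate 2 (-0.17, adjusted p = 0.0702), without anti-Act1 replicate 1 (-0.18, adjusted p = 0.133) or without anti-Act1 replicate 2 (-0.22, adjusted p = 0.0527).

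Among other inhibitors of the pathway, edgeR, DESeq2 and limma on filtered FPKM called 0 higher, with 1 PIAS gene higher at an unadjusted p under 0.05 in edgeR. Of 4 PIAS genes, whose proteins bind activated STATs, Pias1 fell with a log2 fold change of -0.25 (adjusted p = 0.000736), and was not called in the unfiltered limma test (-0.26, adjusted p = 0.0584). Of 7 phosphatases and other brakes, 3 fell. Ptpn6, the gene for the phosphatase SHP-1, was at 174 and 164 CPM in WT and at 134 and 142 CPM in anti-Act1 (log2 fold change -0.29, adjusted p = 2.97e-05). Ptpn1, the gene for PTP1B, was at 157 and 151 CPM in WT and at 130 and 132 CPM in anti-Act1 (log2 fold change -0.23, adjusted p = 0.000586). Sh2b3, the adaptor LNK, had a log2 fold change of -0.15 (adjusted p = 0.0363) and was not called without WT replicate 2 (-0.14, adjusted p = 0.115), anti-Act1 replicate 1 (-0.14, adjusted p = 0.260) or anti-Act1 replicate 2 (-0.16, adjusted p = 0.174).

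Known targets were taken for each STAT factor in turn. Of 25 tested targets of STAT2 with IRF9, 15 rose and 1 fell, with a median log2 fold change of 0.31. Isg15, a ubiquitin-like interferon-induced protein, was at 63.5 and 56.3 CPM in WT and at 85.05 and 92.32 CPM in anti-Act1 (log2 fold change 0.57, adjusted p = 2.49e-10). Ifit1 and Rsad2, antiviral effectors, rose by 0.53 and 0.51 on the log2 scale (adjusted p = 6.01e-11 and 5.01e-11). Oas2, a sensor of viral RNA, was the target called lower (-0.17, adjusted p = 0.0136) and was not called without anti-Act1 replicate 1 (-0.16, adjusted p = 0.148) or replicate 2 (-0.17, adjusted p = 0.113), while 2 targets were called lower without WT replicate 1. Stat2 itself, as given above, was not called.

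Of 21 targets of STAT3, 5 rose and 7 fell, with a median log2 fold change of -0.03. Pim1, a survival kinase, was at 263 and 256 CPM in WT and at 311 and 313 CPM in anti-Act1 (log2 fold change 0.27, adjusted p = 5.77e-05). Il1rn, the IL-1 receptor antagonist, and Vegfa, the vascular growth factor, rose by 0.25 and 0.21 (adjusted p = 0.000168 and 0.00115), and Vegfa was not called in the unfiltered limma test (0.19, adjusted p = 0.104). Ccnd1, the gene for cyclin D1, was at 13.1 and 13.5 CPM in WT and at 4.13 and 4.93 CPM in anti-Act1 (log2 fold change -1.55, adjusted p = 9.11e-15). Cebpb, a transcription factor of myeloid cells, was at 351 and 212 CPM in WT and at 170 and 133 CPM in anti-Act1, so that the WT libraries lay far apart. Its log2 fold change of -0.89 (adjusted p = 1.09e-09) was -0.48 without WT replicate 1 and was not called by DESeq2 (adjusted p = 0.118). Bcl6, a repressor of inflammatory genes, fell with a log2 fold change of -0.36 (adjusted p = 6.14e-06).

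Of 11 targets of STAT5, 3 rose and 3 fell, with a median log2 fold change of -0.03. Pim1, Bcl6 and Bcl2l1, all called, and Mcl1, not called, belong to the STAT3 list too. Pim2, a kinase related to Pim1, was at 5.88 and 6.47 CPM in WT and at 10.8 and 9.94 CPM in anti-Act1 (log2 fold change 0.75, adjusted p = 2.24e-06). Cdkn1a, the cell cycle inhibitor p21, rose by 0.42 (adjusted p = 5.12e-09). Id1, an inhibitor of helix-loop-helix factors, was at 4.84 and 4.99 CPM in WT and at 1.30 and 1.83 CPM in anti-Act1 (log2 fold change -1.66, adjusted p = 1.13e-09). Bcl2l1, a survival gene, was at -0.24 (adjusted p = 0.00416) and was not called without anti-Act1 replicate 1 (-0.21, adjusted p = 0.0973).

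Of 19 targets of STAT6, 15 were tested, 2 rose and 3 fell, with a median log2 fold change of -0.09. Retnla had 0 counts in every library, and Mgl2, Ccl17 and Ccl24 were too low to be tested. Arg1, the arginase of alternatively activated macrophages, was at 1535 and 1500 CPM in WT and at 2381 and 2338 CPM in anti-Act1 (log2 fold change 0.64, adjusted p = 1.12e-14), and the factor Klf4 rose by 0.47 (adjusted p = 8.83e-07). Mrc1, the mannose receptor CD206, was at 399 and 422 CPM in WT and at 265 CPM in both anti-Act1 libraries (log2 fold change -0.63, adjusted p = 5.57e-14). Pparg and Egr2, factors of the IL-4 response, had log2 fold changes of -0.81 and -0.78 (adjusted p = 2.16e-10 and 2.65e-07). In bulk RNA, fewer cells of a type and less RNA per cell cannot be told apart for any of these genes.

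**Figure D3:**
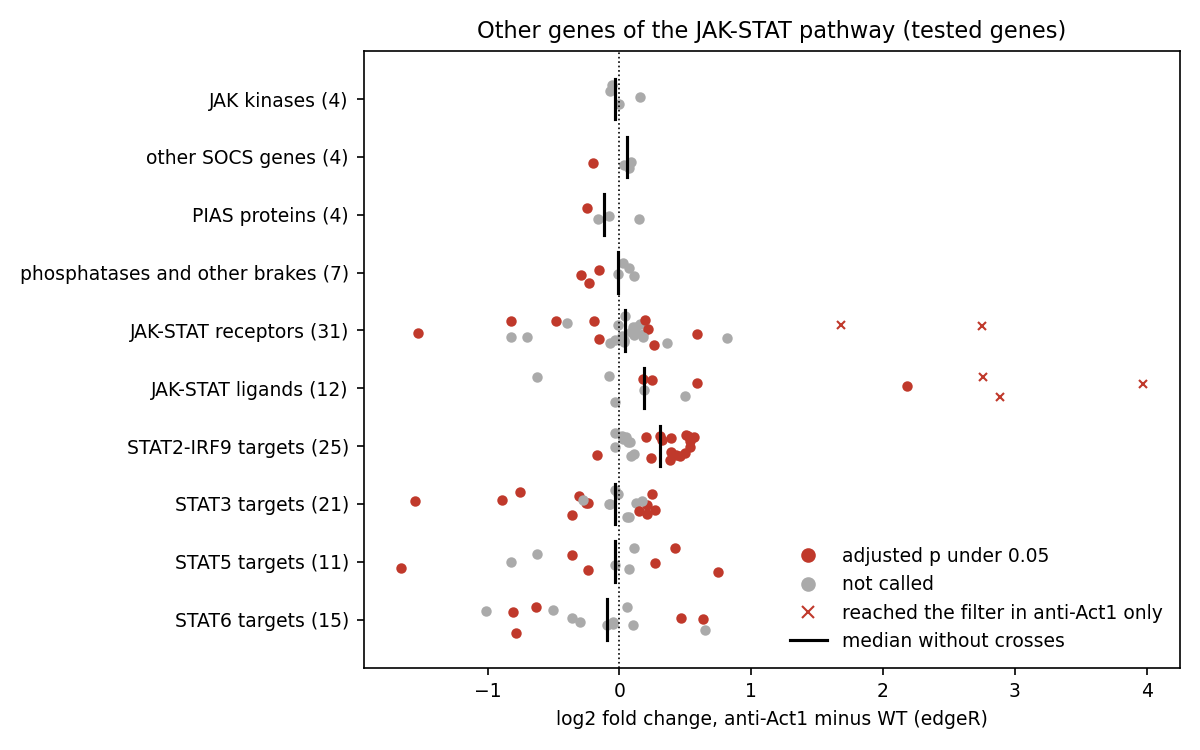
Log2 fold change (anti-Act1 minus WT, edgeR) of each tested gene of the JAK-STAT pathway, 1 point a gene, by list with the number tested in parentheses, with called genes in red. Crosses mark the 3 ligands and 2 receptors that reached the filter in the anti-Act1 libraries only, and bars give list medians without them, 0.31 for the STAT2-IRF9 targets and 0.18 for the ligands. Genes of the STAT3, STAT5 and STAT6 target lists lie on both sides of 0.

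Among 10883 other tested genes with a mean of at least 1 CPM, the profile over the 4 libraries closest to that of Socs3, by the root mean square difference of centred log2 CPM, belonged to Tmem116 (0.034), Ntn1 (0.043) and Mettl1 (0.044). Closest to Cish were Ifit1bl2 (0.032), Dusp10 (0.033) and Klhl3 (0.046). Dusp10, a phosphatase of MAP kinases, was at 2.91 and 3.11 CPM in WT and at 4.42 and 5.51 CPM in anti-Act1, with the same order of libraries as Cish. With 4 libraries many genes share an order, so this likeness is a description.

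**Figure D4:**
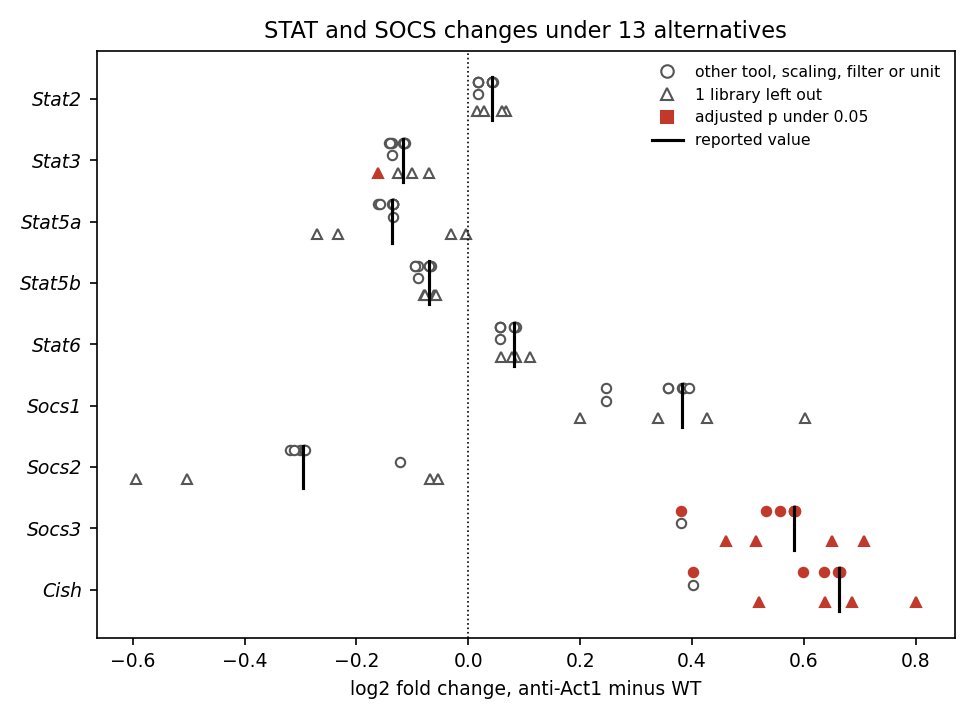
Log2 fold change of each member (anti-Act1 minus WT) under the 13 alternatives, as circles for another tool, scaling, filter or unit and triangles for 1 library left out, with red for an adjusted p under 0.05, a bar at the reported value, and the unfiltered limma test set slightly lower than the other circles. Socs3 ranges from 0.38 to 0.71 and Cish from 0.40 to 0.80, and no member crosses 0.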

How the data were processed

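In all, 4 libraries were analysed, 2 of each group. The authors sequenced read pairs, removed those of low quality, aligned the rest with TopHat 2.0.12 and deposited raw counts per gene without normalization. The deposited FPKM values were found to be the same counts per gene length and column total. The submitters' processing notes also list Bowtie 0.12.2, HTSeq 0.6.1, mm8 and mm10, and do not say which build the counts rest on.

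The 9 members and the gene lists were chosen with earlier results of these data known. Counts were tested with edgeR 4.0.16 (R 4.3.3; TMM, filterByExpr, quasi-likelihood F test, two-sided) on condition only, with Benjamini-Hochberg adjustment over 12494 genes. The study names DESeq2, which was kept as an alternative (1.42.0), with limma 3.58.1 on log2(FPKM + 1) or log2(FPKM + 0.1), other scalings and filters, a replicate block and each library left out. Gene names on more than 1 line (4 lines) stayed in the tests. All members are named, with the 3 genes of smallest adjusted p per pathway list and direction (or, with 0 called, the most abundant) and the 3 nearest profiles of each called member. Promoters came from RefSeq GRCm38.p6 and exons from GENCODE M21, and no coordinate was taken from the authors' files. The edgeR, DESeq2 and limma fits were tested on simulated counts, and the other steps were not. Not every gene of the pathway is reported here.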

Additional observations from a re-analysis of the deposited data

How the results depend on the processing

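Across 13 alternatives no member changed direction. The count of genes called, 2586, fell to 1092 in the unfiltered limma test on log2(FPKM + 1), 1041 of them among the 2586. With 1 library left out it ranged from 1671 (anti-Act1 replicate 2 left out; 1712 for anti-Act1 replicate 1) to 2543. It was 1986 with DESeq2. The count of members called was 2, but 0 in the unfiltered limma test (Socs3 0.38, Cish 0.40) and 2 to 3 with 1 library left out. Stat3 was called without WT replicate 1, and ranged from -0.161 to -0.0704 over the libraries left out. With 1 library left out, Socs3 ranged from 0.46 to 0.71, Cish from 0.52 to 0.80, Socs1 from 0.20 to 0.60, Socs2 from -0.60 to -0.05 and Stat5a from -0.27 to -0.00, and the lone library of a group was then assumed to vary like the other group. Socs2 was below the FPKM minimum and had no value in 2 alternatives. Of the 127 pathway genes tested, 59 were called, and 42 to 60 under the alternatives. The 59 were 29.1% of those tested called higher and 17.3% called lower, beside 10.9% and 9.76% of all genes tested. They include the ligands and receptors that reached the filter in the anti-Act1 libraries only. Of 33 named and called pathway genes, 24 were called in every alternative that gave a value. Jak1, not called, turned from -0.01 to 0.023 without WT replicate 2, with a range of -0.0357 to 0.023 over the libraries left out.

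With the replicate number as a block, 2406 genes and the same count of 2 members were called, and Sh2b3 was no longer called (-0.15, adjusted p = 0.0698). Over all genes compared, same-numbered libraries did not deviate together (r = -0.0438 over 10892 genes). Whether same-numbered libraries shared a preparation was not tested.

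With 2 libraries a group, the intervals of Socs1 and Socs2 were the widest among the members. The difference in Y-linked genes leaves sex and genotype inseparable. The cause of the differences between alternatives was not tested.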
